A study of Drosophila melanogaster with 20 samples.

Results

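MnSOD +DOX flies at day 83 were set against control +DOX flies, and 8 of the 20 arrays of the series entered this comparison, 4 for each group, chosen by their sample titles alone. The MnSOD group were adult males from the cross of the transgenic line MnSOD(2)22 with the transactivator line rtTA(3)E2, fed doxycycline (DOX) and taken at about 50% survival of the DOX-fed cohort, near day 83. The control group were adult males from the cross of Oregon R with the same rtTA(3)E2 line, also fed DOX, and taken at about 50% survival of the flies without DOX, which the sample labels put near day 73 and the design text of the series at day 78. All flies received ampicillin in the food, and each sample was RNA from a pool of 30 whole males. Of the other 12 arrays, MnSOD -DOX at day 73, control -DOX and MnSOD +DOX at day 73 gave 4 each. These arrays place the values of the compared flies and serve in the further comparisons named below. They were also in the model that estimates the spread of each probe set, and so bear on each SE and adjusted p. The line, the induced transgene and the age all differ between the compared groups, and their parts in a difference cannot be told apart. The transgenic line is 1 insertion on the second chromosome made in another stock than Oregon R, and the transactivator is active in all tissues. The arrays were Affymetrix DrosGenome1, whose deposited values are on a log2 scale after robust multi-array averaging (RMA), so that a difference of 1 is a change of 2-fold. No level of one probe set is set against that of another.

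Manganese superoxide dismutase works in the mitochondrial matrix, where it turns the superoxide that leaks from the respiratory chain into hydrogen peroxide. Hydrogen peroxide is then removed by peroxiredoxins and thioredoxin, and in the cytosol and peroxisome by catalase, while glutathione S-transferases and cytochrome P450 enzymes handle oxidized lipids and foreign compounds. In old flies the innate immune response is known to run at a raised level, with antimicrobial peptides made by the fat body under the Toll and Imd pathways.

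Sod2, the gene of the transgene and of the fly's own mitochondrial enzyme, was read at 12.24, 12.26, 12.24 and 12.22 in day 83 MnSOD flies and 8.14, 7.98, 8.07 and 7.59 in control +DOX flies. The groups were far apart and the MnSOD arrays almost equal to each other, so Sod2 was 19.6-fold higher in day 83 MnSOD flies, a log2 difference of 4.29 (SE 0.094, adjusted p = 1.14e-19) in limma and an exact two-sided permutation p of 0.0286, the smallest that 4 arrays against 4 can give. Without DOX, day 73 MnSOD flies averaged 8.42 and control flies 7.56, a difference of 0.85 (adjusted p = 1.71e-06). The line difference with DOX exceeded the one without by 3.44 (adjusted p = 1.77e-14). With DOX at day 73 the same line averaged 12.49. The labels of the MnSOD arrays therefore fit the targeted gene, which says nothing about the labels of the control arrays.

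**Figure D1:**
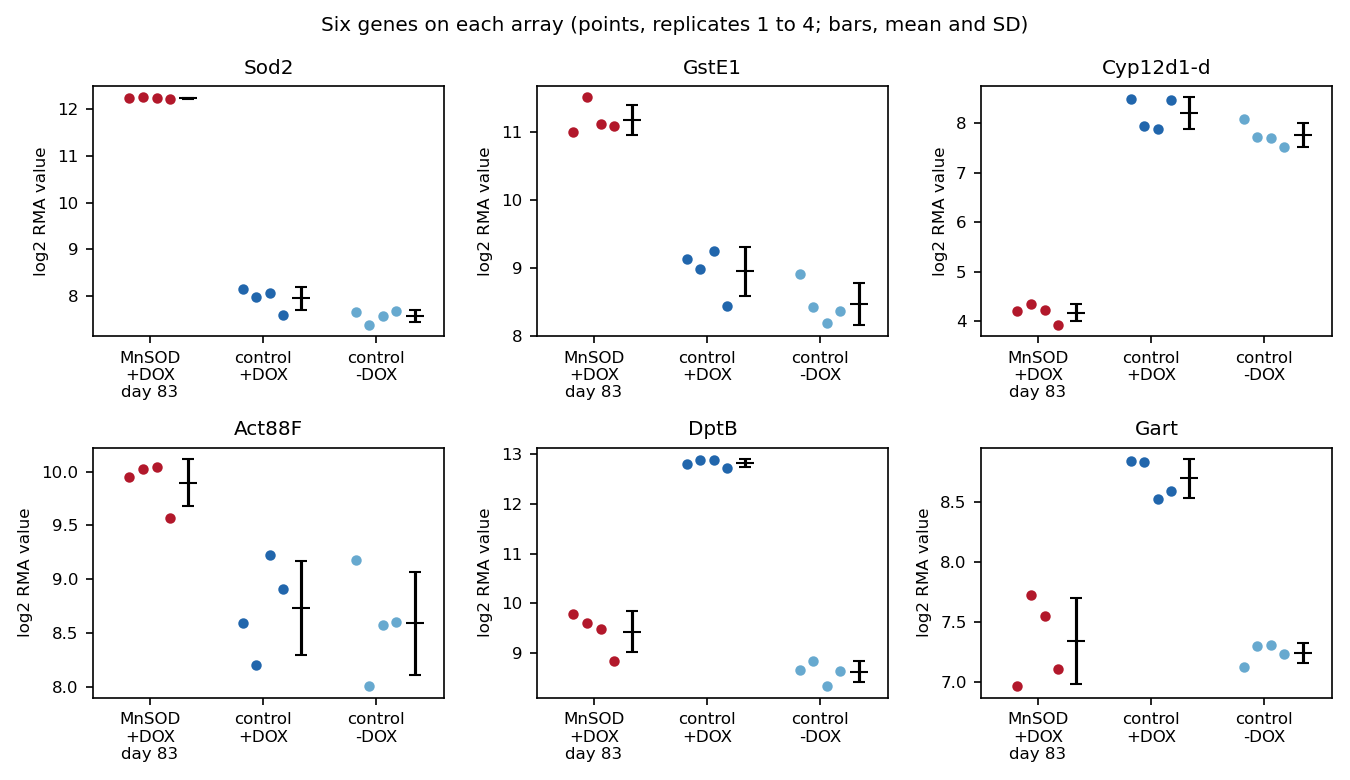
Log2 RMA value of 6 genes on each array of MnSOD +DOX day 83, control +DOX and control -DOX flies, 4 points a group in replicate order, with the mean and SD as a bar beside them. For Sod2, GstE1 and Act88F the MnSOD arrays lie above both control groups and for Cyp12d1-d below both, whereas for DptB and Gart the arrays labelled control +DOX lie above the other groups.

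The labels of the control arrays bear on every signed value below. The study lists its DOX responses of control flies in the direction opposite to the one these labels give, so which control group had been fed DOX is not settled. For this reason the results are also given against the 4 arrays labelled control -DOX, and a difference that turns with that choice is named as such. Control +DOX replicates 1 to 3 also stood apart technically. The SD over probe sets was 1.61 to 1.67 on the MnSOD arrays, against 1.77, 1.74 and 1.75 on those control +DOX arrays and 1.68 on control +DOX replicate 4. Bacterial control transcripts averaged 9.36 to 9.92 on the MnSOD arrays, against 8.41, 7.98 and 8.09 on control +DOX replicates 1 to 3 and 9.69 on replicate 4. On both measures control +DOX replicate 4 lay with the other groups. Signal of 18S ribosomal RNA averaged 3.34 to 3.52 on the MnSOD arrays, and 8.84, 3.94, 5.44 and 3.37 on control +DOX replicates 1 to 4. By exact permutation the mean SD differed between the groups (p = 0.0286), and the bacterial transcripts (p = 0.114), the 18S signal (p = 0.0857) and the gap between 3' and 5' control probe sets of fly transcripts (p = 0.0857) did not pass 0.05. The part of these properties in the differences below was not tested. MnSOD replicate 1 had a median of 5.49, against 5.61 to 5.63 on the other MnSOD arrays and 5.56 to 5.63 on the control +DOX arrays.

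**Figure D2:**
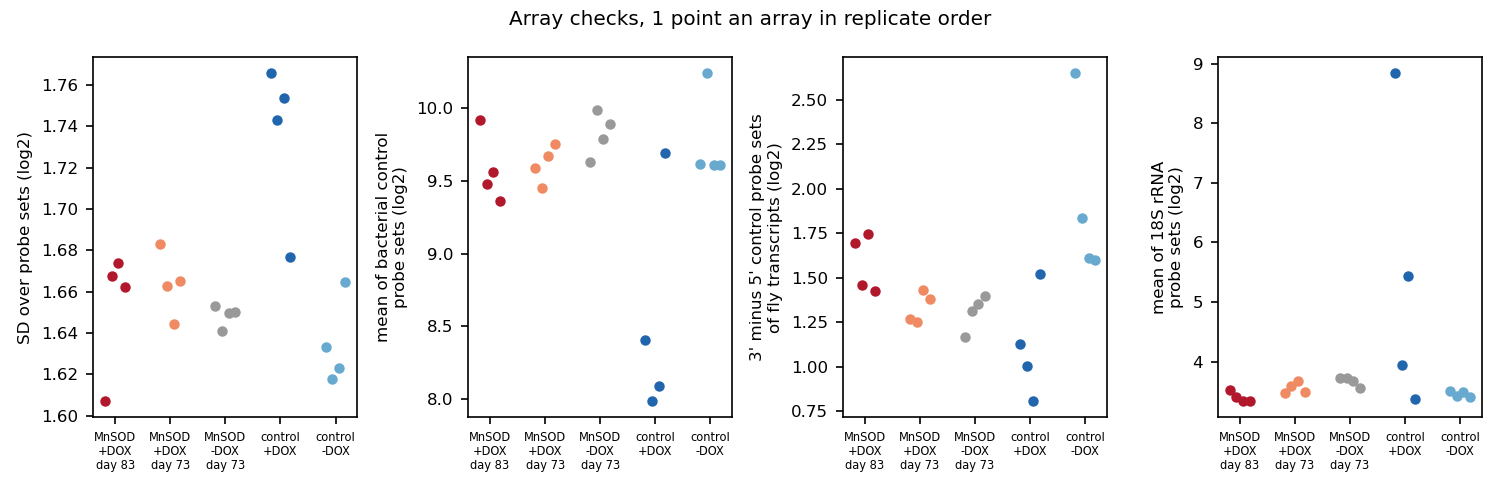
Properties of each of the 20 arrays by group, all on the log2 scale: the SD over probe sets, the mean of the bacterial control probe sets, the gap between 3' and 5' control probe sets of fly transcripts, and the mean of the 18S ribosomal RNA probe sets. Control +DOX replicates 1 to 3 have the highest SD, 1.74 to 1.77, and the lowest bacterial control signal, 7.98 to 8.41, of the 20 arrays.

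Against control +DOX arrays, 963 of 14010 probe sets were higher in day 83 MnSOD flies (6.87%) and 1371 were lower (9.79%), where a call in limma took a fold of 1.2 or more and a Benjamini-Hochberg adjusted p under 0.01. The median difference over all probe sets was 0.0048. Against the arrays labelled control -DOX, 138 were higher (0.985%) and 207 lower (1.48%). These shares of all probe sets are the background for each count of list members below. Called the same way against both control groups were 49 higher and 126 lower probe sets, which is 5.09% and 9.19% of those called against control +DOX, and 35.5% and 60.9% of those called against control -DOX. Single arrays moved these counts: without control +DOX replicate 1, 2 or 3 there were 407, 544 or 432 higher and 800, 1022 or 833 lower, without replicate 4 there were 1723 higher and 1949 lower, and without MnSOD replicate 1 there were 604 higher and 867 lower. With only control +DOX replicate 4 in place of all 4, 22 were higher (0.157%) and 97 lower (0.692%). With only the 8 compared arrays in the model 153 were higher (1.09%) and 428 lower (3.05%), and with the bacterial control signal of each array as a covariate 67 were higher (0.478%) and 196 lower (1.4%). A core of 13 higher and 32 lower probe sets was called against all control +DOX arrays, against control -DOX and in each of the last 3 of these settings. Of the 97 named genes 38 were called the same way against both control groups. In each of those last 3 settings as well 20 of them were called, namely Sod2, GstE1, GstE5, Cyp12d1-d, Cyp6w1, Cyp6a2, Cyp28a5, PGRP-SC2, NimB2, betaTry, Mal-A4, Amy-d, TpnC4, trpl, Odc1, Uhg1, CG11854, CG12780, CG10725 and CG16704. The other 18 lost the call in at least 1 of the 3: GstE11, GstD2, Cyp6a14, BomT3, BomBc3, yip7, Mal-B1, Amyrel, Act88F, Prm, Mlc1, Mlc2, Arr2, Acp36DE, EbpII, Hsp60A, Pepck2 and Gr98a. The larger differences against control +DOX were mostly falls, since 3 probe sets were at least 4-fold higher and 21 at least 4-fold lower. Of them 13 have no single gene in the annotation and are not named. Most of the falls were not called against control -DOX, where Cyp12d1-d and Cyp6w1 stayed lower. An unnamed probe set at -2.29 also stayed lower there, at -0.94. Another unnamed probe set, at -3.35, was called higher against control -DOX, at 1.46. Among the falls was a control probe set of 18S ribosomal RNA, at -2.92.

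**Figure D3:**
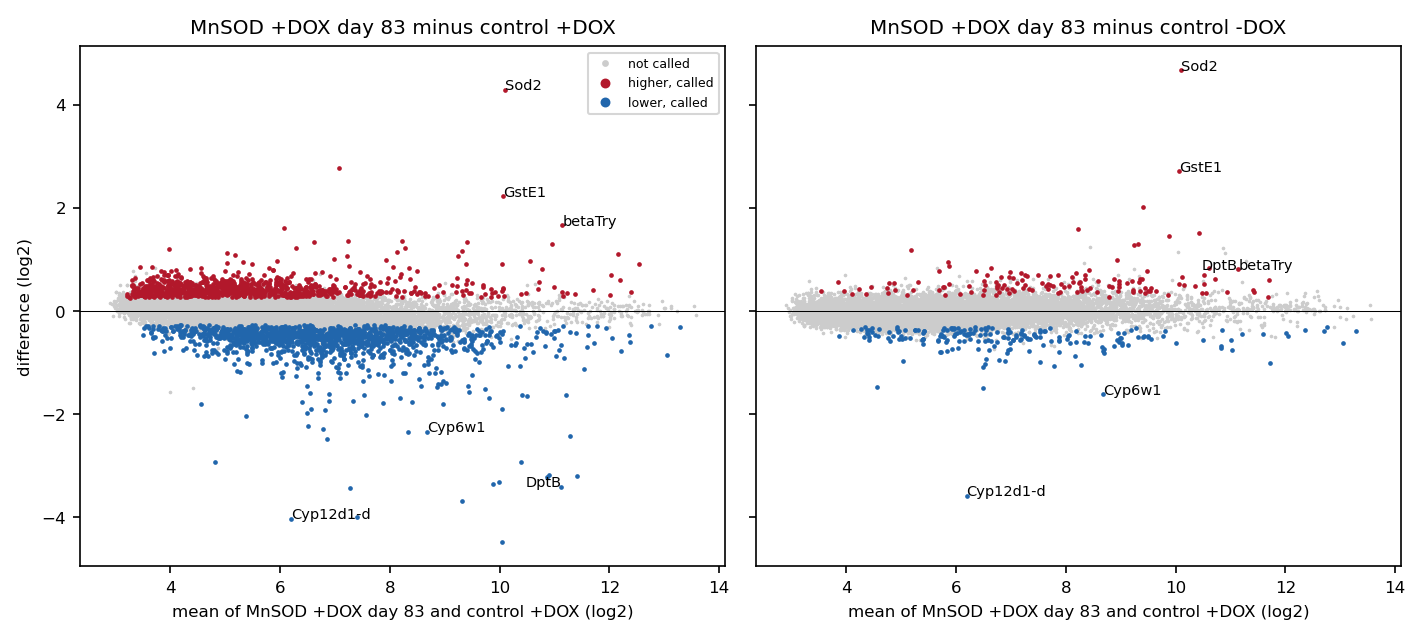
Difference of each probe set (log2, vertical) against the mean of MnSOD +DOX day 83 and control +DOX arrays (log2, horizontal), on the left for day 83 MnSOD minus control +DOX and on the right for day 83 MnSOD minus control -DOX. Sod2, GstE1, Cyp12d1-d and Cyp6w1 keep their side of 0 in both panels, while DptB stands at -3.41 on the left and 0.81 on the right.

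Some enzymes that process foreign and oxidized compounds differed against either control group, while most genes of these families called against control +DOX were not called against control -DOX. GstE1, a glutathione S-transferase, was higher in day 83 MnSOD flies, and the P450 genes Cyp12d1-d, Cyp6w1 and Cyp6a2 were lower. GstE1 was read at 11.00, 11.51, 11.11 and 11.09 on the 4 day 83 MnSOD arrays and 9.13, 8.98, 9.25 and 8.43 on the 4 control +DOX arrays. No MnSOD array came near the control range, and the rise was 4.7-fold, a log2 difference of 2.23 (SE 0.15, adjusted p = 4.5e-10). Against control -DOX arrays it was 2.71. Its sister genes moved both ways. GstE11 was higher, a log2 difference of 0.46 (SE 0.097, adjusted p = 0.00119), as was GstD2, a log2 difference of 0.56 (SE 0.11, adjusted p = 0.000939), whereas GstE5 was lower, a log2 difference of -1.27 (SE 0.12, adjusted p = 9.87e-08), with 5.12, 5.28, 5.76 and 5.43 on the MnSOD +DOX day 83 arrays, against 6.80, 6.53, 6.89 and 6.45 on the control +DOX arrays. All 3 kept their direction and call against control -DOX arrays, with GstE11 at 0.75, GstD2 at 0.69 and GstE5 at -0.72. GstD2 was not called without control +DOX replicates 1 to 3 (adjusted p = 0.0955), with the covariate (0.0190) or with the compared arrays alone (0.0109), nor was GstE11 with the compared arrays alone (0.0237). Of the 34 glutathione S-transferases on the array, 3 were higher and 7 lower, with a median of -0.0097, and against control -DOX 3 were higher and 1 lower. Over all probe sets 6.87% were higher and 9.79% lower, and 0.985% and 1.48% against control -DOX.

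Cyp12d1-d, a mitochondrial P450 linked to insecticide and caffeine exposure, had the largest fall among probe sets with 1 gene. It was read at 4.20, 4.35, 4.23 and 3.93 in day 83 MnSOD flies and 8.49, 7.95, 7.90 and 8.47 in control +DOX flies, which made it 16.3-fold lower, a log2 difference of -4.02 (SE 0.13, adjusted p = 2.51e-16). The gene has a near-identical copy, Cyp12d1-p, which this probe set may not tell apart. Day 73 MnSOD flies were also low, with means of 4.16 on DOX and 4.31 without, against 7.76 in control -DOX flies. Cyp6w1 was read at 7.43, 7.28, 7.79 and 7.56 on the 4 day 83 MnSOD arrays and 10.08, 9.68, 9.80 and 9.85 on the 4 control +DOX arrays, a log2 difference of -2.34 (SE 0.096, adjusted p = 4.18e-14), and lay at -1.61 against control -DOX. For Cyp6a2, an inducible P450 known from insecticide-resistant flies, the values were 7.30, 7.76, 7.91 and 7.78 on the MnSOD +DOX day 83 arrays, against 8.86, 8.79, 9.02 and 8.84 on the control +DOX arrays, a log2 difference of -1.19 (SE 0.11, adjusted p = 4.8e-08), with -1.04 against control -DOX. These 3 genes were thus lower on every day 83 MnSOD array than on any control array they were compared with here. In the other direction Cyp28a5 was higher by 0.87 and Cyp6a14 by 0.50, both also called against control -DOX (0.70 and 0.48). Cyp309a2 was lower by a log2 difference of -1.01 but at -0.29 (adjusted p = 0.0959) against control -DOX. Among 81 P450 genes, 10 were higher and 16 lower, with a median of -0.075, where 6.87% and 9.79% of all probe sets were. Against control -DOX 2 were higher and 6 lower, where 0.985% and 1.48% of all probe sets were. Of 41 other detoxification genes 4 were higher and 7 lower, with Mdr49, a drug efflux pump, at -0.53 and Keap1, the cytosolic inhibitor of the antioxidant regulator CncC, at -0.83. Neither was called against control -DOX (Mdr49 -0.22, adjusted p = 0.0229, and Keap1 -0.17, adjusted p = 0.448), where 1 of the 41 was higher and none lower.

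Among 13 genes of peroxide removal and their thioredoxin partners 1 was higher and 2 were lower, where 6.87% and 9.79% of all probe sets were, and none was called against control -DOX. Irc, a secreted catalase that protects the gut against microbes, stood at -0.93 (adjusted p = 4.41e-06) against control +DOX and at 0.21 against control -DOX. Gclm, the modifier subunit of the enzyme that limits glutathione synthesis, stood at -0.65, and its value was -0.095 against control -DOX. In the respiratory chain itself, none of 31 complex I genes was called, with differences between -0.35 and 0.25, and 1 of 42 genes of the other complexes was higher, the ATP synthase subunit blw at 0.35. The mitochondrial chaperone Hsp60A, which folds imported matrix proteins, was higher, read at 9.38, 9.54, 9.47 and 9.46 in day 83 MnSOD flies and 8.94, 8.94, 9.0 and 9.01 in control +DOX flies, a log2 difference of 0.49 (SE 0.062, adjusted p = 6.5e-06), and was also called against control -DOX at 0.38, but not without control +DOX replicates 1 to 3 (adjusted p = 0.0246). CG11267, a homologue of its small partner Hsp10, was higher by 0.54, with 0.25 (adjusted p = 0.0838) against control -DOX. Of 19 chaperones of the Hsp60, Hsp70 and Hsp90 classes 2 were higher and 1 lower, and the mitochondrial Hsc70-5 and Trap1 were not called (0.21 and 0.082). Of 6 small heat shock proteins 1 was lower.

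Part of the muscle genes were higher in day 83 MnSOD flies. Of 21 contractile genes 10 were higher and none lower, with a median of 0.37, and against control -DOX 7 were higher, with a median of 0.39. Because whole flies were used, fewer cells of a type and less RNA per cell cannot be told apart here or for the other tissue genes. Act88F, the actin of the indirect flight muscle, was read at 9.95, 10.03, 10.04 and 9.57 on the 4 day 83 MnSOD arrays and 8.59, 8.20, 9.23 and 8.91 on the 4 control +DOX arrays, a log2 difference of 1.16 (SE 0.20, adjusted p = 0.000175). TpnC4, the flight muscle troponin C that takes part in stretch activation, was read at 5.81, 5.54, 5.79 and 5.75 on the MnSOD +DOX day 83 arrays, against 4.68, 4.43, 4.90 and 4.51 on the control +DOX arrays, a log2 difference of 1.09 (SE 0.15, adjusted p = 1.19e-05). For both genes the groups did not overlap, and the day 73 MnSOD flies without DOX were high too, at 10.03 for Act88F and 5.64 for TpnC4. Paramyosin, encoded by Prm, was higher by 0.55, and the myosin light chains Mlc1 and Mlc2 by 0.43 and 0.41. Without control +DOX replicates 1 to 3, 3 of the 21 contractile genes were called higher, with the covariate 5 and with the compared arrays alone 6. Act88F was not called without those replicates (0.99, adjusted p = 0.0792) or with the covariate (adjusted p = 0.0132). With the compared arrays alone in the model Mlc1 and Mlc2 were not called (adjusted p = 0.0107 and 0.0229). Of 4 muscle markers on the array 2 were higher. TpnC41C, another troponin C, stood at 0.098 (adjusted p = 0.465) and was not called.

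Digestive enzymes changed in both directions. betaTry, a midgut trypsin, was the third largest rise among probe sets with 1 gene, with 12.06, 11.90, 11.92 and 12.02 in day 83 MnSOD flies and 10.16, 10.42, 10.32 and 10.33 in control +DOX flies, a log2 difference of 1.67 (SE 0.14, adjusted p = 9.08e-09), and it was also called against control -DOX at 0.81. Other secreted proteases followed the control group used. Jon74E was higher by 0.81 and the predicted protease CG7542 by 0.99 against control +DOX, but these were 0.037 and 0.14 against control -DOX. Bace, an aspartyl protease, was higher by 0.92, with 0.21 against control -DOX, whereas yip7 was lower in both, at -0.61 and -1.0. Of 28 gut serine proteases 3 were higher and 5 lower, where 6.87% and 9.79% of all probe sets were. Against control -DOX the counts were 1 and 6, where 0.985% and 1.48% of all probe sets were called. Among 13 genes of carbohydrate digestion 1 was higher and 5 were lower, with 1 and 4 against control -DOX. The amylase Amy-d was read at 10.60, 10.44, 10.47 and 10.43 on the 4 day 83 MnSOD arrays and 11.19, 11.04, 10.99 and 11.45 on the 4 control +DOX arrays, a log2 difference of -0.68 (SE 0.085, adjusted p = 4.51e-06). The maltases Mal-B1 and Mal-A4 were lower by log2 differences of -1.75 and -1.02, and remained called against control -DOX at -0.76 and -0.49. Amyrel, an amylase-related enzyme of the gut, went the other way, higher by 0.79 and by 0.87 against control -DOX. Amy-d has a near-identical copy, Amy-p, so its values may come from both.

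Immune genes gave the largest group of falls against control +DOX, and few of these were called against control -DOX. Of 8 antimicrobial peptide genes 6 were lower and none higher, with a median of -2.13, whereas none was called against control -DOX, where the median was 0.11. DptB, a peptide against Gram-negative bacteria made under Imd control, was read at 9.78, 9.60, 9.47 and 8.83 on the MnSOD +DOX day 83 arrays, against 12.81, 12.90, 12.89 and 12.72 on the control +DOX arrays, a log2 difference of -3.41 (SE 0.31, adjusted p = 5.88e-08). Mtk, an antifungal and antibacterial peptide, was read at 10.16, 9.69, 10.15 and 9.27 in day 83 MnSOD flies and 12.87, 13.01, 12.91 and 13.23 in control +DOX flies, a log2 difference of -3.19 (SE 0.32, adjusted p = 1.95e-07). The arrays labelled control +DOX were close together and above every day 83 MnSOD array for both genes. The means of the other groups show where the contrast lies. DptB averaged 9.81 in day 73 MnSOD +DOX flies and 12.35 in day 73 MnSOD flies without DOX, against 8.61 in control -DOX flies. Mtk averaged 10.09, 12.85 and 9.61 in the same order of groups. High values were therefore shared by MnSOD -DOX flies and the arrays labelled control +DOX, and low values by MnSOD +DOX flies and the arrays labelled control -DOX. Def, which acts on Gram-positive bacteria, and Drs, the antifungal drosomycin under Toll control, stood at -2.35 and -1.62, and were 0.93 (adjusted p = 0.0137) and 0.56 (adjusted p = 0.0276) against control -DOX. AttD and CecB, an attacin and a cecropin, stood at -2.22 and -2.03, with -0.20 and -0.39 against control -DOX and means of 6.35 and 4.78 in MnSOD -DOX flies.

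Of 31 genes of peptidoglycan recognition and of the Toll and Imd pathways 15 were lower and none higher, with a median of -0.44, against 1 lower and a median of -0.012 in the comparison with control -DOX. PGRP-SB1, a secreted recognition protein induced by infection, was read at 8.35, 8.55, 8.37 and 8.08 on the 4 day 83 MnSOD arrays and 11.74, 11.66, 11.68 and 11.51 on the 4 control +DOX arrays, a log2 difference of -3.31 (SE 0.15, adjusted p = 2.39e-13). Rel, the NF-kappaB factor of the Imd pathway, was lower by a log2 difference of -1.19, and pirk, an inhibitor induced by the same pathway, by -1.25. Both lay near 0 against control -DOX, at 0.28 and 0.053. PGRP-LB, an amidase that degrades peptidoglycan and damps the Imd response, was -1.68 against control +DOX and -0.10 against control -DOX. The 1 gene of this list that was lower against both was PGRP-SC2, a gut amidase, read at 8.09, 8.19, 7.83 and 8.16 on the MnSOD +DOX day 83 arrays, against 9.53, 9.97, 9.84 and 10.10 on the control +DOX arrays, a log2 difference of -1.79 (SE 0.11, adjusted p = 8.03e-11), with -0.60 (adjusted p = 0.00156) against control -DOX. The Toll ligand spz stood at -1.04, and -0.065 against control -DOX.

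Short secreted immune peptides did not move as 1 group against control +DOX. Among 11 Bomanins and immune-induced molecules 2 were higher and 3 lower, and against control -DOX none was higher and 2 were lower. BomS5 was higher by 0.69, but was not called against control -DOX (0.35, adjusted p = 0.0141). BomT3 and BomBc3 were lower by log2 differences of -0.68 and -0.63 and kept that direction and call against control -DOX (-0.48 and -0.56). Listericin, an antibacterial protein, stood at -1.64, and at 0.58 against control -DOX. Among 17 genes of thioester proteins and blood cells 7 were lower. NimB2, a secreted protein of the Nimrod family, was lower on every MnSOD array, with 8.25, 8.36, 8.39 and 8.27 in day 83 MnSOD flies and 10.04, 9.68, 9.85 and 9.32 in control +DOX flies, a log2 difference of -1.40 (SE 0.11, adjusted p = 5.04e-09), and -0.66 against control -DOX. Of the blood cell markers, Hml and NimC1 were lower at -0.56 and -0.87, and PPO1 and Pxn were not called (-0.11 and 0.10). The mean over these 4 markers was 5.71 to 5.88 on the day 83 MnSOD arrays and 6.03 to 6.30 on the control +DOX arrays, and its part in the immune differences was not tested.

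**Figure D4:**
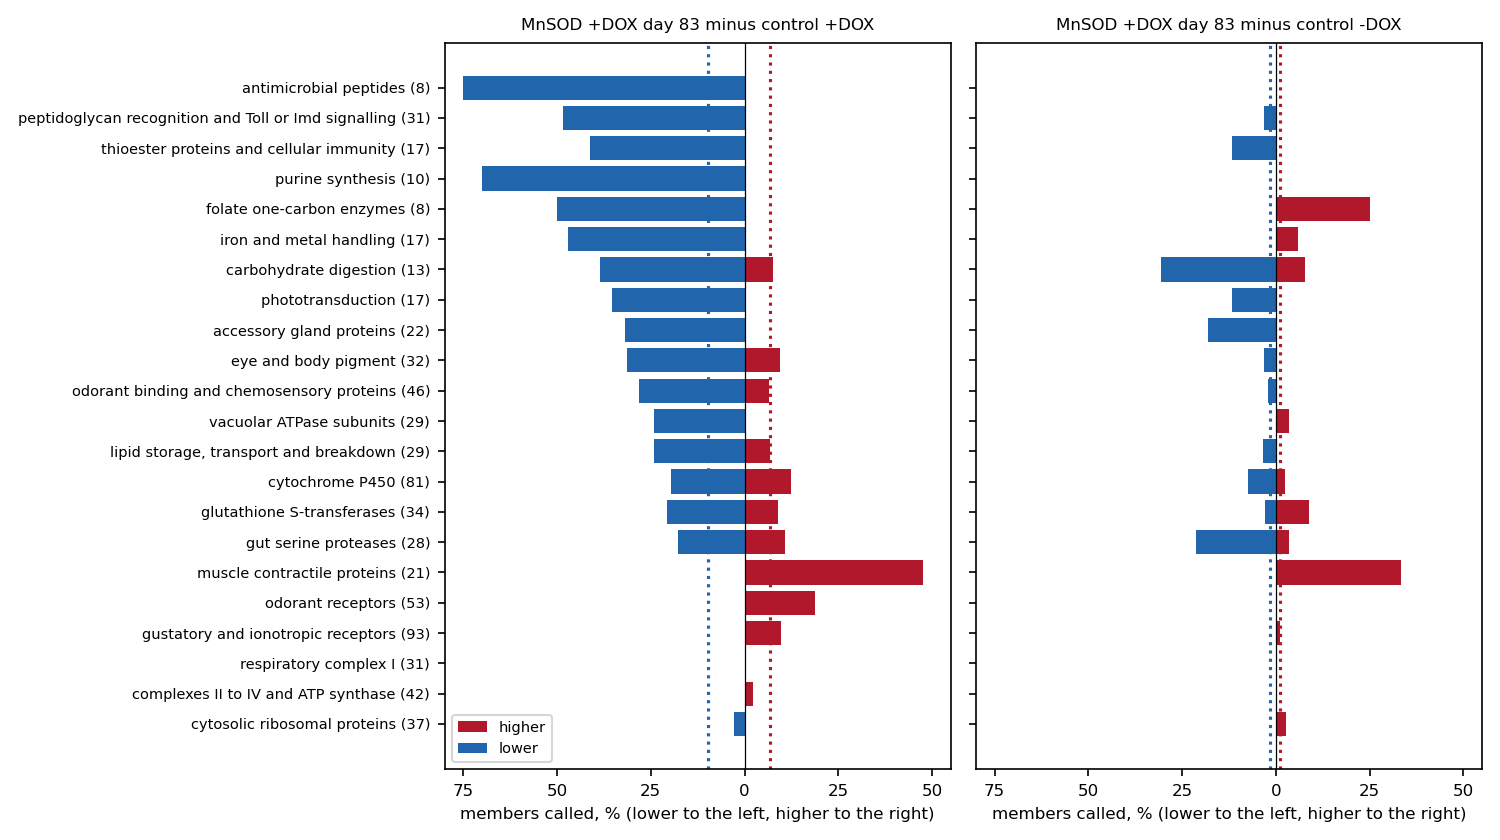
Share of members called lower (left of 0) and higher (right of 0), in percent, for 22 gene lists with the number of members on the array in brackets, for day 83 MnSOD minus control +DOX on the left and minus control -DOX on the right. Dotted lines give the share over all probe sets, 9.79% lower and 6.87% higher on the left and 1.48% and 0.985% on the right. Muscle genes are called higher in both panels, 10 and 7 of 21, and antimicrobial peptides are called lower on the left alone, 6 of 8 against 0.

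De novo purine synthesis builds the purine ring on phosphoribose with 1-carbon units carried by folate, and its enzymes were lower against control +DOX only. Of 10 purine genes 7 were lower, with a median of -0.46, and none against control -DOX, where the median was 0.13. Gart, a trifunctional enzyme of the pathway, was read at 6.97, 7.73, 7.55 and 7.12 on the 4 day 83 MnSOD arrays and 8.84, 8.83, 8.53 and 8.59 on the 4 control +DOX arrays, a log2 difference of -1.35 (SE 0.13, adjusted p = 8.3e-08). The other groups averaged 7.44 in MnSOD +DOX at day 73, 7.91 in MnSOD -DOX and 7.25 in control -DOX, so the arrays labelled control +DOX were the high ones. Prat2, which starts the pathway, Pfas, Adsl and Paics stood at -1.41, -1.36, -0.85 and -0.50, against -0.18, 0.27, 0.082 and 0.35 from control -DOX. In folate metabolism 4 of 8 genes were lower. Gnmt, which consumes S-adenosylmethionine to methylate glycine, was read at 9.71, 9.73, 9.83 and 9.08 on the MnSOD +DOX day 83 arrays, against 11.24, 11.49, 11.34 and 10.80 on the control +DOX arrays, a log2 difference of -1.63 (SE 0.14, adjusted p = 1.91e-08), and was -0.39 (adjusted p = 0.0835) against control -DOX. The folate enzymes pug and Shmt, and Sardh, which oxidizes sarcosine, stood at -0.86, -0.68 and -0.80, with 0.23, 0.22 and -0.24 against control -DOX. Against control -DOX 2 other genes of this list were higher.

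**Figure D5:**
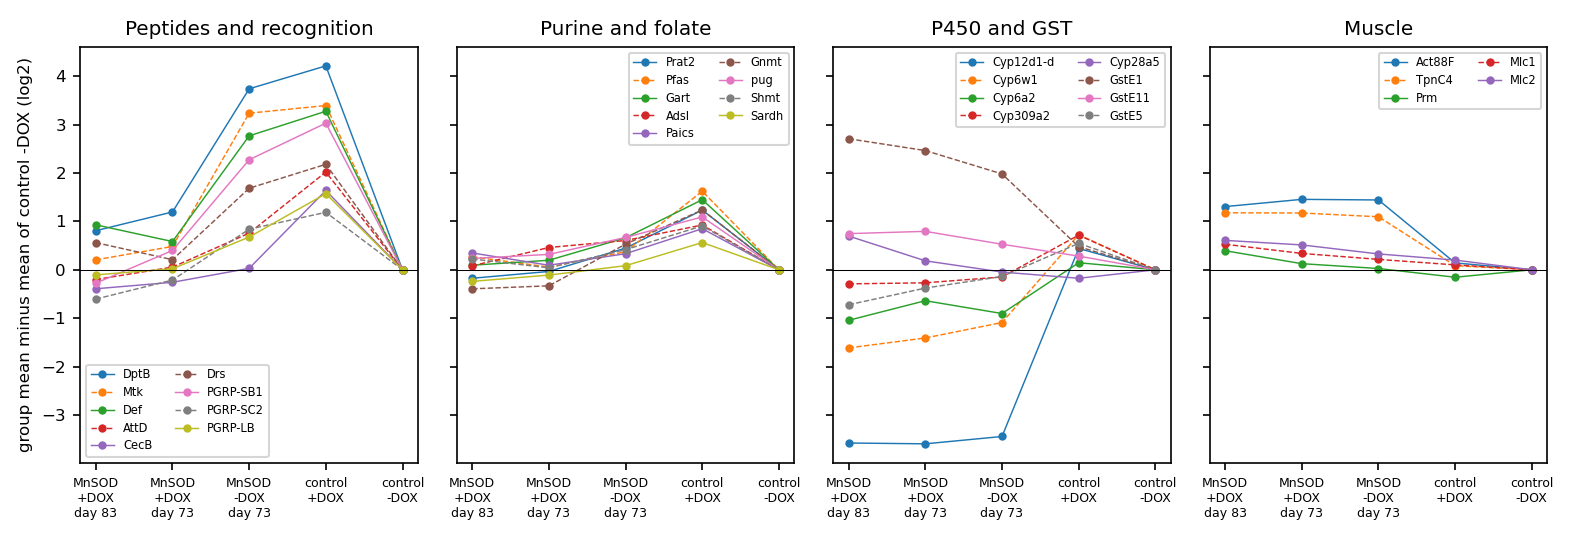
Group means of named genes minus the mean of the arrays labelled control -DOX (log2), for immune, purine and folate, detoxification and muscle genes, over the 5 groups from left to right: MnSOD +DOX day 83, MnSOD +DOX day 73, MnSOD -DOX day 73, control +DOX and control -DOX. Immune genes such as DptB are high in MnSOD -DOX and control +DOX flies, purine and folate genes are highest in control +DOX flies, and Cyp12d1-d, GstE1, Act88F and TpnC4 separate the 3 MnSOD groups from both control groups.

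Metabolic genes outside these pathways gave few calls that held against both control groups. Of 21 genes of glycolysis and gluconeogenesis 3 were lower, among them Pepck2, a phosphoenolpyruvate carboxykinase, at -0.84 and -0.77 against the control -DOX arrays, and fbp, fructose-bisphosphatase, at -0.65 and -0.24. Lipid genes counted 2 higher and 7 lower of 29, where 6.87% and 9.79% of all probe sets were. Lsd-1, a perilipin on fat droplets, stood at -0.99, and whd, the carnitine palmitoyltransferase that admits fatty acids to mitochondria, at 0.77. Neither passed against control -DOX (-0.41 and 0.12), nor without control +DOX replicates 1 to 3 (-0.56 and 0.33). Of 17 genes of iron and metal handling 8 were lower, with a median of -0.34. They included Tsf1, the blood transferrin, at -0.46, Irp-1B, an iron regulatory protein, at -0.78, Mco1, a multicopper oxidase, at -0.55, and the metallothionein MtnC at -0.79. None of the 17 was lower against control -DOX and 1 was higher. Ornithine decarboxylase, encoded by Odc1 and the first step to polyamines, was higher with 7.37, 7.42, 7.63 and 7.55 in day 83 MnSOD flies and 6.49, 6.50, 6.44 and 6.50 in control +DOX flies, a log2 difference of 1.01 (SE 0.076, adjusted p = 2.15e-09), and 0.75 against control -DOX.

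Sensory genes fell into 2 kinds. Of 53 odorant receptors 10 were higher and none lower, and of 93 gustatory, ionotropic and pickpocket receptors 9 were higher and none lower. Their differences were small, with medians of 0.14 and 0.13, Or43b at 0.51 and Gr98a at 0.68 among the higher. Against control -DOX the medians were -0.083 and -0.093, none of the odorant receptors and 1 of the other receptors was called, and Or43b stood at -0.013. These receptors have dim probe sets, and the dimmest 20% of all probe sets had a median difference of 0.096 with 10.2% called higher, while the brightest 20% had -0.10 with 5.35% higher and 20.5% lower. Without control +DOX replicates 1 to 3 the medians of these classes were 0.030 and -0.025, and no odorant receptor was called. Odorant binding proteins, which are secreted and abundant, counted 3 higher and 13 lower of 46, with Obp56a at -1.35, Obp56d at -0.90 and Obp19d at -0.65. Against control -DOX these 3 were 0.30, -0.18 and 0.035. In the eye, 6 of 17 phototransduction genes were lower. The light-gated channel gene trpl was read at 7.38, 7.42, 7.41 and 7.40 on the 4 day 83 MnSOD arrays and 8.04, 8.14, 8.18 and 8.32 on the 4 control +DOX arrays, a log2 difference of -0.77 (SE 0.082, adjusted p = 4.71e-07), and -1.06 against control -DOX, with the lines also apart without DOX (-0.84). The arrestins Arr1 and Arr2, which switch off rhodopsin, stood at -0.73 and -0.40, the lipid enzyme Cds at -0.91, and of these only Arr2 was also called against control -DOX (-0.36). Eye and body pigment genes counted 3 higher and 10 lower of 32, with Ddc, dopa decarboxylase, at -0.96, Pu, GTP cyclohydrolase, at -0.93 and ry, xanthine dehydrogenase, at -0.82. Their values against control -DOX were 0.10, 0.43 and -0.26.

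Accessory glands make the seminal proteins that change female behaviour after mating. Of 22 genes listed for this gland 7 were lower and none higher, where 9.79% of all probe sets were lower, and 4 were lower against control -DOX. The list took in Acp1 and Acp65Aa, which are named for adult cuticle and not for this gland. Neither was called (0.14 and 0.33). Without control +DOX replicates 1 to 3 none of the 22 was called. Acp36DE, needed for sperm storage, stood at -0.75 and -0.73 against the control -DOX arrays, and Acp53Ea at -1.22 and -0.68 (adjusted p = 0.0101). The ejaculatory bulb proteins EbpII and EbpIII stood at -0.69 and -0.60, and at -0.44 and 0.14 against control -DOX. Among 38 testis genes 2 were higher and 3 lower, both below the shares of all probe sets. Of the 8 testis markers none was called, and of 9 female markers osk alone was called, at 0.60 with means of 3.89 in day 83 MnSOD and 3.29 in control +DOX flies, while the yolk proteins Yp1, Yp2 and Yp3 lay at 0.15, 0.10 and -0.0050. Yolk proteins are made by females, and the values of Yp1 were 6.84 in day 83 MnSOD and 6.69 in control +DOX flies.

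A number of the strongest differences between the lines with DOX were also there without it. The lines without DOX, MnSOD day 73 minus control, differed at 450 higher (3.21%) and 467 lower (3.33%) probe sets, and this comparison shares no array with the one at day 83. Of the probe sets called with DOX, 30 higher (3.12%) and 59 lower (4.30%) were called the same way without it. Those shares lie near the 3.21% and 3.33% of all probe sets. Called the opposite way without DOX were 62 of the 963 higher probe sets, where 3.33% of all probe sets were lower. Of the 1371 lower probe sets 157 were called higher without DOX, where 3.21% of all probe sets were. Among named genes Cyp12d1-d was -3.45 without DOX, GstE1 1.98, Act88F 1.44, TpnC4 1.10 and Amyrel 1.51. Opposite in sign without DOX were DptB at 3.74, Mtk at 3.24 and Obp56a at 1.45. The line difference with DOX at day 83 minus the one without DOX was called at 1139 higher (8.13%) and 1329 lower (9.49%) probe sets, and with the control groups exchanged at 858 higher and 1471 lower. It was -0.58 for Cyp12d1-d (SE 0.18, adjusted p = 0.0183), 0.25 for GstE1 (SE 0.22, adjusted p = 0.387), -0.0027 for TpnC4 (SE 0.21, adjusted p = 0.993) and -0.28 for Act88F (SE 0.28, adjusted p = 0.455), none of them called. For Amyrel this difference of line differences was -0.72 (SE 0.19, adjusted p = 0.00582) and was called. The age and the DOX feeding differ between these 2 line differences as well as the state of the transgene.

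The same control +DOX arrays also served for MnSOD +DOX flies at day 73, so the 2 ages are given side by side only. At day 83 and day 73 the differences were 2.23 and 1.99 for GstE1, -4.02 and -4.04 for Cyp12d1-d, -3.41 and -3.02 for DptB, and -1.35 and -1.25 for Gart. Larger gaps between the ages were seen for Cyp28a5 at 0.87 and 0.36, GstD2 at 0.56 and 0.056, CG10725 at 1.34 and 0.63, and Odc1 at 1.01 and 0.40.

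Several of the largest differences were in genes whose function is little described. CG16704 was read at 9.93, 9.83, 9.66 and 9.67 on the MnSOD +DOX day 83 arrays, against 8.81, 8.92, 8.64 and 8.50 on the control +DOX arrays, a log2 difference of 1.06 (SE 0.11, adjusted p = 1.82e-07), and without DOX the lines differed by 1.2. CG10725 was higher by 1.34, and by 2.02 against control -DOX, and CG12780 by 1.36 and 1.60. These 3 genes were higher than in either control group. Uhg1, a host gene of small nucleolar RNAs, was read at 3.83, 3.58, 3.63 and 3.62 in day 83 MnSOD flies and 5.77, 4.99, 5.80 and 5.27 in control +DOX flies, a log2 difference of -1.79 (SE 0.14, adjusted p = 3e-09), with -1.69 between the lines without DOX. CG11854 was lower with 5.40, 5.33, 5.67 and 5.62 on the 4 day 83 MnSOD arrays and 7.67, 7.29, 7.55 and 7.38 on the 4 control +DOX arrays, a log2 difference of -1.97 (SE 0.11, adjusted p = 2.71e-11), and -1.50 against control -DOX. The falls of CG17107 (-2.01), Ect3 (-1.92), CG13947 (-1.90) and CG14499 (-1.90) were not called against control -DOX, where they stood at 0.052, -0.23, -0.15 and -0.38. CG1648 was higher by 0.97, and Gyg, glycogenin, the primer of glycogen, by 1.34, with 0.028 and 0.57 against control -DOX. Control +DOX replicate 4 was alone near the MnSOD arrays for Gyg, with 7.19 to 7.41 on the MnSOD arrays, 7.05 on that control array and 5.43 to 5.69 on the other control +DOX arrays. CG14742 was higher by 1.06, but its groups overlapped, with 8.11, 7.75, 7.74 and 7.42 on the MnSOD +DOX day 83 arrays, against 6.48, 6.69, 5.76 and 7.83 on the control +DOX arrays, and without control +DOX replicates 1 to 3 the difference was -0.077. The clock repressor cwo was lower by a log2 difference of -0.84 against control +DOX and stood at 0.046 against control -DOX.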

How the data were processed

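RNA of 20 pools of males had been hybridized to Affymetrix DrosGenome1 arrays. The authors applied RMA (affy package) to the scans and deposited 1 table of log2 expression values, of which each of the 20 columns was read. The version of affy was not given in the sources used here. Scanner intensities were not analysed here, and the number of arrays limits the precision. Groups came from the sample labels, which call the replicates biological but do not name their cultures. The p-values in limma therefore rest on the spread between these samples, taken over all 5 groups. The median SD between replicates was 0.129 in day 83 MnSOD and 0.123 in control +DOX flies. It was 0.085 in MnSOD +DOX and 0.079 in MnSOD -DOX flies at day 73, and 0.133 in control -DOX flies. Replicate numbers did not pair the arrays of the 2 groups.

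limma 3.58.1 in R 4.3.3 fitted 1 model with a mean for each of 5 groups, with empirical Bayes moderation and Benjamini-Hochberg adjustment over 14010 probe sets in each contrast. Thresholds (adjusted p under 0.01, 1.2-fold) follow the methods of the study. Single values of 4 arrays against 4 were tested by exact permutation. Tables were made with Python 3.11.15, its packages being pandas 2.3.3, scipy 1.17.1 and numpy 2.4.6. In simulated data for day 83 MnSOD minus control +DOX, with 100 of the 14010 probe sets changed per size, 67 were recovered at a log2 difference of 0.5 and 98 at 1, with 1 false call. The simulated noise was normal and independent between arrays, with the same SD on every array for a probe set. It held no property shared by some arrays, such as those of control +DOX replicates 1 to 3. Its false calls therefore do not measure those among the real arrays.

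Genes were named from the platform annotation, which gives 1 gene for 12444 probe sets, several for 327 and none for 1239. A gene on more than 1 probe set is represented by the brightest of them over all arrays. Tissue markers are named as well, but count among the 97 named genes only where the rule below took them. These 97 were all called against control +DOX. They are Sod2 and at most 4 called members per list. The others are the 15 largest called rises and falls among probe sets with 1 gene, of which a part is printed. That part, and each gene printed outside the rule, were chosen after values were seen. The members and the gene lists were chosen with earlier results of these data known. After values were seen, TpnC4 was set beside TpnC41C as a muscle gene of its own and gcm was taken out of the female genes. No sequence is printed. Alternatives were the exchange of the control groups, a model of the compared arrays alone, a replicate block, the removal of the dimmest 40% of probe sets, 2 normalizations, the variance model, array weights, a spike-in covariate, AFFX probe sets left out, the thresholds and arrays left out.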

Additional observations from a re-analysis of the deposited data

Results flagged for a closer look

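Of 202 sets of 4 arrays, 12 held a value whose gap to the nearest array, as a share of the range, was above Dixon's critical value, where chance gives about 5%. In day 83 MnSOD flies replicate 1 was the one set apart 6 times. Its array median was 5.49, against 5.61 to 5.63 on the other 3. Gclm was 7.92 there and 8.43 to 8.45 on the others, GstE11 7.13 and 7.48 to 7.54, and Prat2 7.87 and 8.24 to 8.29. For Keap1 it gave 4.03, the others 4.59 to 4.62, and for Mdr49 7.63, the others at 7.54. The part of this array's lower median in those values was not tested. Gnmt was low on MnSOD replicate 4, at 9.08 against 9.71 to 9.83.

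Control +DOX replicate 4, the array of that group whose bacterial control signal was like that of the other groups, was set apart 4 times, each time toward the MnSOD arrays. Mal-B1 was 7.75 there and 8.34 to 8.36 on the other 3, Arr1 9.67 and 9.94 to 9.97, EbpIII 12.32 and 12.77 to 12.85, and Gyg 7.05 and 5.43 to 5.69. Odc1 was 6.44 on control +DOX replicate 3, against 6.49 to 6.50.

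For 72 of the named genes the line difference with DOX at day 83 differed from the one without DOX by the interaction test in limma, 17 of them upward and 55 downward. All 97 named genes were called at day 83, so this share is of a chosen set. With the control groups exchanged 8 of the 72 were called the same way and 20 the opposite way. Those called the same way were Sod2, GstD2, Cyp28a5, Hsp60A, Mal-A4, Acp36DE, CG13947 and Tsf1. The values below are log2 differences of differences.

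Among detoxification and antioxidant genes they were Sod2 3.44, GstD2 0.62, Cyp28a5 0.92, GstE5 -1.13, Cyp6w1 -1.25, Cyp309a2 -0.86, Mdr49 -0.59, Keap1 -0.82, Irc -1.51 and Gclm -0.73. Immune genes gave DptB -7.15, Mtk -6.43, Def -5.12, Drs -3.31, AttD -2.98, CecB -2.06, PGRP-SB1 -5.58, PGRP-SC2 -2.63, PGRP-LB -2.35, pirk -1.29, Rel -1.56, spz -1.41, Listericin -3.02, NimB2 -1.0 and BomS5 0.49. For purine and folate genes they were Prat2 -1.86, Pfas -1.73, Gart -2.02, Adsl -1.45, Paics -0.83, Gnmt -2.16, pug -1.53, Shmt -1.10 and Sardh -0.89. All but BomS5 of these immune, purine and folate genes were negative, with the control labels as given.

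Gut and carbohydrate genes gave betaTry 1.06, Jon74E 1.39, Bace 0.70, CG7542 1.52, Mal-B1 -1.55, Mal-A4 -1.57 and Amyrel -0.72. Mitochondrial, lipid and muscle genes gave Hsp60A 0.53, CG11267 0.73, blw 0.57, whd 1.35, Lsd-1 -1.45 and Prm 0.52. Metal and pump genes gave Tsf1 -0.83, Irp-1B -1.28, Mco1 -0.94 and Vha13 -0.61. With the control labels as given, the proteases and mitochondrial genes were positive and the metal genes negative. With the control groups exchanged, betaTry, Jon74E, Bace and CG7542 were at -0.65, -0.16, -0.72 and -0.17, and blw at -0.018. Irp-1B and Mco1 were then at 0.051 and 0.28. Hsp60A at 0.32 and Tsf1 at -0.44 kept their direction and call. CG11267 was at 0.14, whd at 0.042 and Vha13 at 0.36, none of them called.

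Sensory, pigment and clock genes gave Obp56a -2.80, Obp56d -1.05, Obp19d -0.72, Or43b 0.72, Cds -1.03, Arr1 -0.77, Ddc -1.75, Pu -1.98, ry -0.82 and cwo -1.08. Male reproductive genes gave Acp53Ea -1.07, Acp36DE -0.72 and EbpIII -1.05. The remaining genes gave CG17107 -3.32, CG11854 -1.45, Ect3 -2.55, CG13947 -4.95, CG14499 -2.56, CG14742 2.62, Odc1 0.79 and CG1648 1.85.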

How the results depend on the processing

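Sod2 kept its direction and its call under every alternative run, at 4.18 to 4.67. The counts of higher and lower probe sets did not keep their size. They were 138 and 207 with the control groups exchanged, 153 and 428 with only the compared arrays in the fit, 67 and 196 with the spike-in covariate, and 22 and 97 without control +DOX replicates 1 to 3, where the lone array is assumed to vary like the other groups. Array weights gave 1943 higher and the filter on the lowest 40% of probe sets 457 higher. At an adjusted p under 0.05 1588 were higher, and at a fold of at least 2 the counts were 21 and 102. Leaving out 1 array gave 407 to 1723 higher and 800 to 1949 lower. The interaction counts were 858 higher and 1471 lower with the control groups exchanged, 334 higher and 483 lower with the covariate and 96 and 203 without control +DOX replicates 1 to 3, and the filter gave 609 higher, since fewer probe sets are tested. The cause of the other changes was not tested.

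Replicate numbers were shared by label only: the correlation of deviations between same-numbered arrays was -0.16, -0.040, 0.088 and -0.094, and 870 higher and 1269 lower probe sets were called with a replicate block, which changed no call of the 97 named genes.

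With the control groups exchanged 38 of these genes kept their call, 35 lost it and 24 changed sign. The sign changed for Irc 0.21, DptB 0.81, Mtk 0.21, Def 0.93, Drs 0.56, pirk 0.053, Rel 0.28, Listericin 0.58, Pfas 0.27, Gart 0.095, Adsl 0.082, Paics 0.35, pug 0.23, Shmt 0.22, Ddc 0.10, Pu 0.43, Obp56a 0.30, Obp19d 0.035, EbpIII 0.14, cwo 0.046, CG17107 0.052, CG14742 -0.62, Or43b -0.013 and Mco1 0.060. Without control +DOX replicates 1 to 3 48 of 97 kept their call, 48 lost it and CG14742 changed sign at -0.077. The covariate ended 27 calls and the fit of the compared arrays alone 11. Leaving out 1 array at a time ended calls of Or43b and CG14742 only. Dim probe sets, chemosensory receptors among them, have the least signal over background.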

Other observations

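Further gene groups had fewer calls, most of them against control +DOX alone. Of 29 subunits of the vacuolar ATPase, the proton pump of lysosomes and renal tubules, 7 were lower, with a median of -0.14, and against control -DOX none was lower and 1 was higher. Vha13 stood at -0.53. Of 19 genes of JAK-STAT, JNK and MAPK signalling 4 were lower, where 9.79% of all probe sets were: egr, the fly tumour necrosis factor, at -0.41, its receptor grnd at -0.78, the fly Jun protein Jra at -0.48, and puc, a phosphatase induced by JNK, at -0.64. Other JNK genes of the list were not called, with the kinases bsk at -0.039, hep at -0.062, msn at -0.039 and slpr at 0.097, and kay at 0.098. Against control -DOX egr was at -0.031, grnd at -0.078, Jra at 0.046 and puc at 0.18. The cell death regulators Diap2, Buffy and Debcl were lower (3 of 13), and so were 3 of 15 insulin and TOR genes, the translation factor eIF4E1 at -0.40, Ilp2, an insulin-like peptide of the brain, at -0.42, and tobi at -0.47. Only tobi of these insulin and cell death genes was also called against control -DOX, at -0.48.

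Cuticle and chitin genes counted 6 higher and 7 lower of 111, genes of the ecdysone response 5 and 2 of 37, proteasome subunits 2 and 4 of 39, mitochondrial ribosomal proteins 3 and 1 of 64, and cytosolic ribosomal proteins 0 and 1 of 37. Of these shares only those of ecdysone genes called higher and of proteasome subunits called lower lay above the 6.87% and 9.79% of all probe sets. Cell type markers were counted against control +DOX only. Those of other cell types gave 3 of 6 lower for the accessory gland, 2 of 3 lower for the eye and 1 of 4 lower for neurons. The accessory gland markers called lower were Acp26Aa, Acp36DE and Spn28F, the last with a dim probe set. Acp76A, another gene of this gland on the array, was not among the 6 and was not called. The count for this gland therefore depends on which of these genes is taken as a marker. The other markers were called as follows. Markers gave 2 of 6 higher for the midgut, 1 higher and 1 lower of 3 for the fat body, and none of 2 for glia or for the Malpighian tubule. The dosage compensation marker on the array, msl-2, was higher at 0.39 (adjusted p = 0.00205). Of 10 genes of dosage compensation and sex determination none was called against control -DOX.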
